A study of Mus musculus with 4 samples.

Results

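Ccne1, Ccne2, Notch1, Mcl1, Mtor, Klf5 and Hif1a encode proteins that the ubiquitin ligase receptor FBXW7 marks for degradation. These 7 genes were taken by Ensembl ID from a table of 53465 mouse gene IDs; the FBXW7 substrates Myc and Jun were not among them. They were followed in ribosome profiling libraries, in which short RNA fragments shielded by ribosomes (footprints) are sequenced and counted per gene, from MLE-12 cells, a lung epithelial line of the mouse that expresses the SV40 large T antigen and serves as a stand-in for alveolar type 2 cells. The libraries were 1-nitropyrene replicates 2 and 3, from cells given 5 µM of this nitrated aromatic compound of diesel exhaust for 12 h, and control replicates 1 and 2, from cells cultured for the same time without it. All cells were of this line, with no other allele or agent named in the labels, and all were washed with cycloheximide, which holds ribosomes on the mRNA, before lysis. Whether replicate libraries stem from separate cultures is not in the labels, and the p-values therefore cover a spread that may be technical.

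FBXW7 is the part of an SCF ubiquitin ligase that recognises a substrate. It binds proteins phosphorylated at a short motif, the phosphodegron, and the ubiquitinated protein is then destroyed by the proteasome. The ligase acts on finished proteins, whereas a footprint count reflects how much mRNA a gene has and how densely ribosomes occupy it, and says nothing of the stability of the protein. The substrates have different tasks: cyclins E1 and E2 drive entry into S phase, MCL1 holds back apoptosis, mTOR is the growth kinase of the TORC complexes, KLF5 and HIF-1 alpha are transcription factors, and NOTCH1 is a cell surface receptor.

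The count table carries IDs only, and the symbols of the 7 genes come with the definition of the set. The table of RefSeq genes used here (assembly GRCm38.p6, the build that mm10 names) held all 7 symbols but an Ensembl ID for 0 of its 49997 genes. Fbxw7 itself, its ligase partners, the pathways around each substrate and markers of the cell type are therefore not analysed here, and whether the cells carry alveolar type 2 markers was not tested.

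Total counts were 1243186 and 1357034 in the 1-nitropyrene libraries and 1261372 and 1136145 in the control libraries. The 7 genes together took 850 and 875 of these counts (0.0684% and 0.0645%) in the 1-nitropyrene libraries, against 833 and 793 (0.0660% and 0.0698%) in the control libraries. Their summed share thus overlapped between the groups. Levels below are counts scaled to 1e6 per library (CPM) with TMM, which adjusts library sizes so that most genes do not shift. A single count was worth between 0.761 and 0.860 CPM. Coding lengths were not available, so levels are compared between libraries and not between genes.

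Exposed cells had more footprints on Mcl1 and Ccne2 and fewer on Hif1a. Mcl1 rose 1.58-fold and Ccne2 1.40-fold, while Hif1a fell to 0.779 of its control level. Ccne1, Mtor and Klf5 did not pass the test, and Notch1 had no count in any library. Of the 6 substrates with enough counts to be tested, 2 were thus called higher, 1 lower and 3 neither, with a Benjamini-Hochberg adjusted p of 0.05 as the threshold in edgeR's quasi-likelihood test over 7719 genes. Of all genes tested, 17.3% were called, 9.68% higher and 7.58% lower. Calls were more frequent among well covered genes: 37.7% of the 1796 genes averaging 100 or more counts were called (25.8% higher, 11.9% lower), a limit set after the data were seen, and 4 of the 6 substrates, among them the 3 called, lie above it. In TMM-scaled CPM, exposed and control libraries did not overlap for 5 of the 6 substrates, against 57.3% of all genes tested. For Mtor and Klf5 the gap was small: the lower exposed library had 95.8 and 16.6 CPM, the higher control 94.5 and 16.0 CPM. Gaps of that size can close under another scaling, for which this count was not made. Under other settings the shares called were 19.6% of all genes with total counts as the scaling (5.26% higher, 14.4% lower) and 16.2% with limma-voom (9.25% higher, 6.93% lower). The DESeq2 Wald test called 11.2% of the genes it gave an adjusted p (8.45% higher, 2.73% lower), and 4.47% of the 7719 genes edgeR tested (3.15% higher, 1.32% lower). Of the substrates, it called only Mcl1 in either form, so the calls of Ccne2 and Hif1a depend on the test used. In bulk cultures such as these, a change in the number of cells that make an mRNA and a change in its level per cell cannot be told apart.

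**Figure D1:**
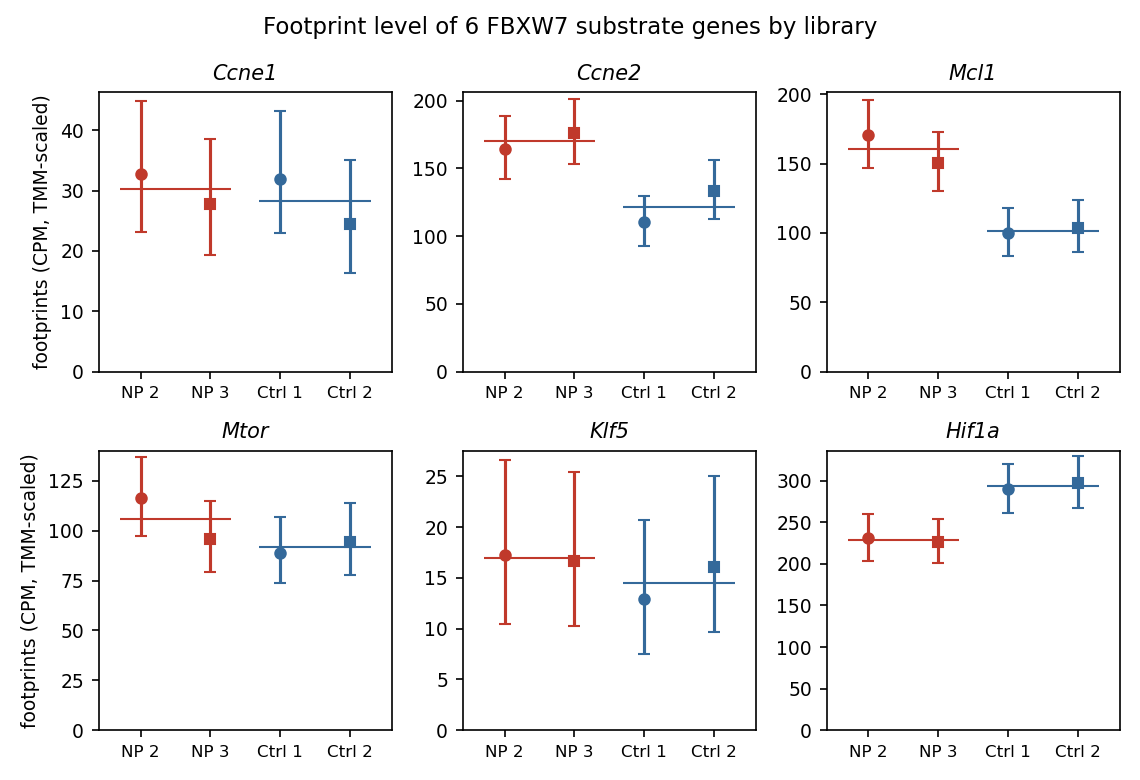
Footprint level (TMM-scaled CPM, linear axis from 0, separate for each gene) of the 6 substrates with counts in 1-nitropyrene replicates 2 and 3 (red, NP) and control replicates 1 and 2 (blue, Ctrl). Points are libraries, bars are exact 95% Poisson intervals that cover counting error only, and horizontal lines are group means. Mcl1 and Ccne2 sit higher and Hif1a lower in both exposed libraries; the bars of exposed and control libraries stay apart for Mcl1 and Hif1a and overlap for Ccne2, Klf5, Ccne1 and Mtor.

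The cyclins E1 and E2 are paralogs that activate the kinase CDK2 at the passage into S phase. Ccne1 lies at chr7:38097984-38107490 and Ccne2 at chr4:11190433-11204779 in GRCm38.p6. Ccne2 (ENSMUSG00000028212) had 191 and 222 counts in the 1-nitropyrene libraries, against 145 and 158 in the control libraries. These counts correspond to 164 and 176 CPM in exposed cells, against 110.3 and 133 CPM in control cells. Both exposed libraries lay above both controls, and the lowest of the 4 exposed-to-control ratios was 1.23. Ccne2 averaged 170.1 ± 8.12 CPM in exposed cells and 122 ± 16.3 CPM in control cells (SD, n = 2 each; log2 fold change in edgeR 0.49 ± 0.14 SE, adjusted p = 0.00488). This call was lost with the DESeq2 Wald test (adjusted p = 0.145), with scaling to total counts (adjusted p = 0.0838 in edgeR), and in edgeR without 1-nitropyrene replicate 2 (adjusted p = 0.0558), 1-nitropyrene replicate 3 (0.0870) or control replicate 1 (0.203).

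Ccne1 (ENSMUSG00000002068) had far fewer counts. They were 38 and 35 in the 1-nitropyrene libraries, against 42 and 29 in the control libraries, or 32.7 and 27.7 CPM against 31.9 and 24.5 CPM. The groups overlapped, and the controls differed between themselves by a factor of 1.31. Ccne1 averaged 30.2 ± 3.52 CPM in exposed cells and 28.2 ± 5.29 CPM in control cells (SD, n = 2 each; edgeR adjusted p = 0.889). The 95% interval of its fold change ran from 0.703 to 1.61, which includes the 1.40-fold rise of Ccne2. The direction of so small a difference turned with scaling: the log2 fold change was 0.09 with TMM and -0.07 with total counts.

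Counts of the cyclins were also added within each library. The sum was 229 and 257 in the 1-nitropyrene libraries and 187 in each control library, or 197 and 204 CPM against 142 and 158 CPM. Ccne2 contributed 83.4% and 86.4% of the sum in exposed cells, against 77.5% and 84.5% in control cells. The Wilson 95% intervals were 78.0% to 87.7% and 81.6% to 90.0% in exposed cells, against 71.0% to 82.9% and 78.6% to 89.0% in control cells. The shares overlapped between the groups, and so did the intervals, which cover counting error in 1 library each. Overlap of such intervals is no test of a group difference, and a shift in these shares was not tested. The shares are of counts and are not corrected for the length of either gene.

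Mcl1 showed the clearest difference of the set. It encodes a short-lived BCL2 family protein that binds the pro-apoptotic members BAK and BIM and keeps mitochondria intact, and it lies at chr3:95656944-95663179. Mcl1 (ENSMUSG00000038612) had 198 and 190 counts in the 1-nitropyrene libraries, against 131 and 123 in the control libraries. The levels were 170.4 and 150.5 CPM in exposed cells, against 99.6 and 104 CPM in control cells. The groups were well apart, with exposed-to-control ratios between 1.45 and 1.71 over the 4 pairs of libraries, while libraries of a group differed by factors of 1.13 and 1.04. Mcl1 averaged 160.4 ± 14.1 CPM in exposed cells and 101.7 ± 2.92 CPM in control cells (SD, n = 2 each; log2 fold change in edgeR 0.66 ± 0.15 SE, adjusted p = 0.000182). This change stood at percentile 90.9 of the log2 fold changes of all genes tested. Mcl1 was called higher under all 13 alternatives run, with adjusted p between 0.000161 and 0.0498, the last of these in edgeR without 1-nitropyrene replicate 2; the DESeq2 Wald test gave adjusted p = 0.0384.

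Hif1a moved the other way. Its protein is the oxygen-regulated subunit of the hypoxia-inducible factor, which pairs with ARNT and switches on glycolytic and angiogenic genes when oxygen is short; it lies at chr12:73901324-73947554. Hif1a (ENSMUSG00000021109) had 268 and 286 counts in the 1-nitropyrene libraries, against 381 and 352 in the control libraries. The levels were 231 and 227 CPM in exposed cells, against 289.8 and 297 CPM in control cells. Replicates were close, differing by a factor of 1.02 in either group, and each of the 4 exposed-to-control ratios lay between 0.763 and 0.796. Hif1a averaged 229 ± 2.88 CPM in exposed cells and 293 ± 5.08 CPM in control cells (SD, n = 2 each; log2 fold change in edgeR -0.36 ± 0.10 SE, adjusted p = 0.00456). This is a modest shift, at percentile 24.9 of the log2 fold changes of all genes tested. The call was lost with the DESeq2 Wald test (adjusted p = 0.163) and in edgeR without 1-nitropyrene replicate 2 (adjusted p = 0.0824), 1-nitropyrene replicate 3 (0.0630) or control replicate 2 (0.0789).

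Mcl1 and Hif1a are the called genes of opposite direction whose promoter windows are in the RefSeq table, and the 250 bases before the transcript start that this table uses are shown for comparison (GRCm38.p6, 5′ to 3′ on the plus strand, on which both genes lie). That start is base 95658721 for Mcl1 and base 73907867 for Hif1a, which lie 1777 and 6543 bases inside the gene spans given above, so the windows do not precede the first base of either span. Capitals mark matches on either strand to ACGTG, a form of the core of the hypoxia response element, and to CCAAT, the box bound by NF-Y. Other forms of that core, such as GCGTG, were not searched.
Mcl1, chr3:95658471-95658720: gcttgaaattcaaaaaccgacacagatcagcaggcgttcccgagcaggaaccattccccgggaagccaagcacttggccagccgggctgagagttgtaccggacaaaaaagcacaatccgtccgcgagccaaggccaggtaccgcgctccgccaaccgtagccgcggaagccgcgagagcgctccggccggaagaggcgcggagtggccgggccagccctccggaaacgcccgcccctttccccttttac
Hif1a, chr12:73907617-73907866: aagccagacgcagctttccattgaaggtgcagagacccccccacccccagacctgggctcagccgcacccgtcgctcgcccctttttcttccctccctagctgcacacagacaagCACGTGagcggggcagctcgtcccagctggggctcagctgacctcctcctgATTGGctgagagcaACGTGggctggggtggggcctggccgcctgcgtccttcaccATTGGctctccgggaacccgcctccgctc

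The Hif1a window held ACGTG at 3 positions, of which the matches that begin at -135 and -134, counted from base 73907867, overlap on opposite strands as the palindrome in capitals, and CCAAT at 2. The Mcl1 window held neither, nor did that of Notch1. Among the substrates that were not called, the Ccne1 window held ACGTG but not CCAAT. The Mtor window held CCAAT, at more positions than the Hif1a window, but not ACGTG. Each motif thus also occurred in the window of a gene that was not called. Over the 32851 promoter windows of the same length in the table, ACGTG occurred in 16.6% and CCAAT in 33.8%. The E2F motif, searched as TTTCCCGC, TTTCGCGC, TTTGCCGC and TTTGGCGC on both strands, occurred in 1.86% of windows and in none of the 5 substrate windows in the table, those of Ccne1, Notch1, Mcl1, Mtor and Hif1a. These matches describe the letters of the windows and were not related to the footprint counts by any test.

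Mtor and Klf5 had higher means in exposed cells, but neither passed the test. Mtor, which encodes the kinase at the centre of nutrient and growth factor signalling (chr4:148448582-148557685, ENSMUSG00000028991), had 135 and 121 counts in the 1-nitropyrene libraries, against 117 and 112 in the control libraries. The levels were 116 and 95.8 CPM in exposed cells, against 89.0 and 94.5 CPM in control cells, so that 1-nitropyrene replicate 3 lay just above the higher control. Mtor averaged 106.0 ± 14.4 CPM in exposed cells and 91.7 ± 3.89 CPM in control cells (SD, n = 2 each; edgeR adjusted p = 0.433), and the 95% interval of its fold change was 0.917 to 1.45.

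Klf5, a zinc finger factor of proliferating epithelia (chr14:99298691-99313412, ENSMUSG00000005148), rested on 20 and 21 counts in the 1-nitropyrene libraries, against 17 and 19 in the control libraries. The levels were 17.2 and 16.6 CPM in exposed cells, against 12.9 and 16.0 CPM in control cells. The libraries were separated by less than 1 CPM at the boundary of the groups. Klf5 averaged 16.9 ± 0.407 CPM in exposed cells and 14.5 ± 2.19 CPM in control cells (SD, n = 2 each; edgeR adjusted p = 0.768). The interval of its fold change, 0.668 to 2.05, was the widest of the 6, and both no change and a rise as large as the 1.58-fold of Mcl1 lie within it.

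Notch1 (ENSMUSG00000026923, chr2:26457902-26503822), the receptor whose cleaved intracellular domain is the FBXW7 target, had 0 counts in all 4 libraries. A count of 0 allows up to 3 counts, or 2.58 and 2.38 CPM in the 1-nitropyrene libraries and 2.28 and 2.53 CPM in the control libraries. Over the summed libraries of a group the limit was 1.24 CPM in exposed cells and 1.20 CPM in control cells. No fold change can be given, and footprints on Notch1 below these limits could have been missed. Intervals and limits of this kind cover counting error only.

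**Figure D2:**
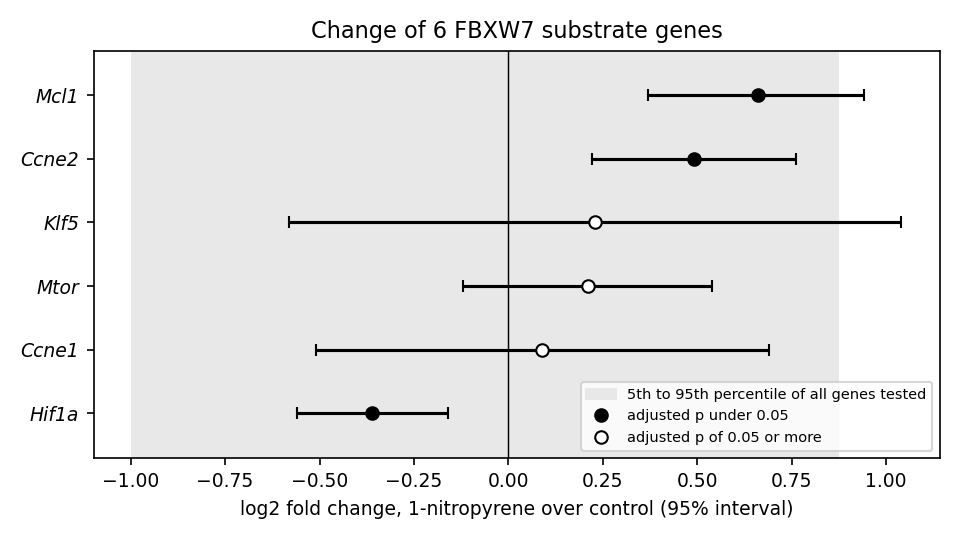
Log2 fold change, 1-nitropyrene over control, of the 6 substrates tested, with 95% intervals from edgeR. Filled points passed an adjusted p of 0.05, and the grey band runs from the 5th to the 95th percentile of all genes tested (-1.0 to 0.87). The intervals of Mcl1 and Ccne2 lie above 0, that of Hif1a lies below 0, and those of Ccne1, Mtor and Klf5 include 0.

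The median log2 fold change of the 6 substrates tested was 0.22, beside -0.0076 over all genes tested. It was 0.09 over the 1796 genes averaging 100 or more counts, among which 4 of the 6 substrates lie. Of the 6, 5 had a positive value, beside 49.2% of all genes tested. The smallest of these, 0.09 for Ccne1, reversed in 4 of 12 alternative settings. Footprint coverage differed widely within the set, from Klf5 at percentile 25.3 of the mean levels of all genes tested and Ccne1 at percentile 47.4 to Mtor at 80.6, Mcl1 at 85.3, Ccne2 at 86.9 and Hif1a at 93.6. The substrates that were called were the most deeply covered of the set, and the precision followed: the SE of the log2 fold change was 0.10 for Hif1a, 0.14 for Ccne2 and 0.15 for Mcl1, against 0.17 for Mtor, 0.30 for Ccne1 and 0.41 for Klf5.

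**Figure D3:**
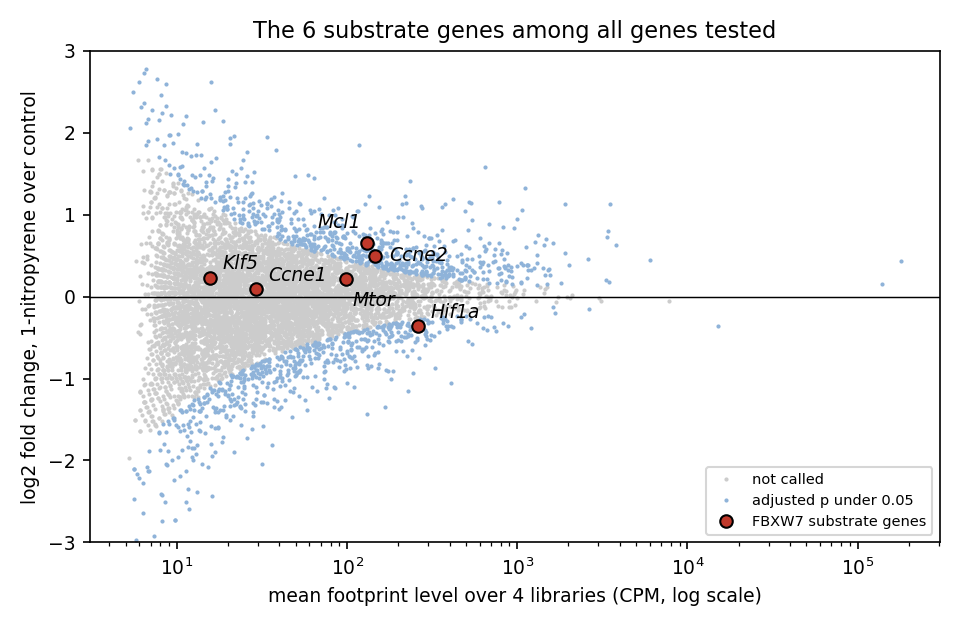
Log2 fold change against mean footprint level (CPM, log axis) for all 7719 genes tested, with the 6 substrates in red. Blue dots passed an adjusted p of 0.05, and 3 genes beyond 3 on the vertical axis are not drawn. Mcl1 and Ccne2 lie among the called genes above 0 and Hif1a among those below 0, while Klf5 and Ccne1 lie at levels where changes of that size were not called.

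How large the changes appear depends on how libraries are scaled. With total counts in place of TMM the median log2 fold change of all genes tested was -0.17, against -0.0076 with TMM. The 2 IDs with the most counts took 32.9% and 33% of the counts in the 1-nitropyrene libraries, against 29.7% in each control library. With total counts but without these 2 IDs, a setting chosen after seeing the data, the median of all genes tested was -0.1. A change of scaling moves all genes by nearly the same amount, so values relative to that median hardly depend on it by construction; with TMM they were 0.66 for Mcl1, 0.50 for Ccne2 and -0.35 for Hif1a. Ratios between substrates within a library need no scaling at all. The pairs were picked with the changes above known, and a ratio to Hif1a carries the fall of Hif1a, so these ratios describe the same counts and are no independent support. The ratio of Mcl1 to Hif1a counts was 0.739 and 0.664 in the 1-nitropyrene libraries, against 0.344 and 0.349 in the control libraries. Both exposed libraries thus lay far above both controls, which were nearly equal. The ratio was 0.702 ± 0.0527 in exposed cells and 0.347 ± 0.00396 in control cells (SD, n = 2 each), a 2.02-fold difference, and an exact two-sided permutation test gave p = 0.333, the smallest that 2 libraries against 2 allow.

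The ratio of Ccne2 to Hif1a counts was 0.713 and 0.776 in the 1-nitropyrene libraries, against 0.381 and 0.449 in the control libraries, a 1.80-fold difference. That of Mtor to Hif1a was 0.504 and 0.423 in exposed cells, against 0.307 and 0.318 in control cells, a 1.48-fold difference, although Mtor itself was not called. Both were higher in each exposed library than in any control (exact permutation p = 0.333 each). The ratio of Mcl1 to Mtor was 1.47 and 1.57 in exposed cells, against 1.12 and 1.10 in control cells, without overlap (exact permutation p = 0.333). That of Ccne2 to Mtor was 1.41 and 1.83 in exposed cells, against 1.24 and 1.41 in control cells, so that the nearest libraries almost met (exact permutation p = 0.333). The ratio of Mcl1 to Ccne2, the genes that rose, was 1.04 and 0.856 in exposed cells, against 0.903 and 0.778 in control cells, and overlapped between the groups (exact permutation p = 0.667). So did that of Ccne2 to Ccne1, at 5.03 and 6.34 in exposed cells, against 3.45 and 5.45 in control cells (exact permutation p = 0.667). In all, 7 such ratios were computed, and the design lets none of them pass a threshold of 0.05, adjusted or not.

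**Figure D4:**
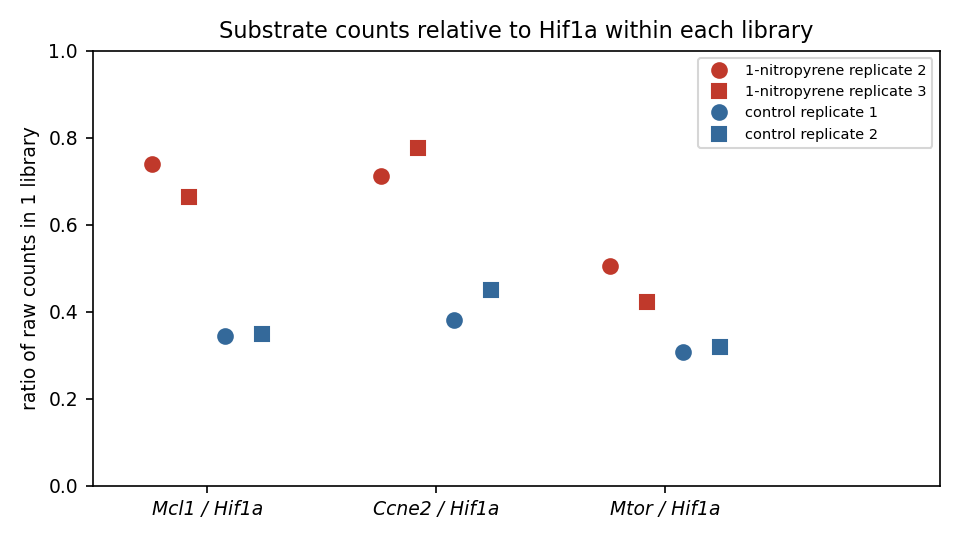
Ratio of the raw counts of Mcl1, Ccne2 and Mtor to those of Hif1a within each library (linear axis from 0), for the 1-nitropyrene libraries (red) and the control libraries (blue). Each of the ratios was higher in both exposed libraries than in either control, with the widest gap for Mcl1 to Hif1a (0.739 and 0.664 against 0.344 and 0.349); each ratio includes the lower Hif1a counts of the exposed libraries.

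As a share of all counts on the 7 substrates, Hif1a took 31.5% and 32.7% in the 1-nitropyrene libraries, against 45.7% and 44.4% in the control libraries. The Wilson 95% intervals, 28.5% to 34.7% and 29.7% to 35.9% in exposed cells against 42.4% to 49.1% and 41.0% to 47.9% in control cells, did not meet. Mcl1 took 23.3% and 21.7% in exposed cells, against 15.7% and 15.5% in control cells, with intervals of 20.6% to 26.3% and 19.1% to 24.6%, against 13.4% to 18.4% and 13.2% to 18.2%, that did not meet either. Ccne2 took 22.5% and 25.4% in exposed cells, against 17.4% and 19.9% in control cells, and here the intervals did meet, at 19.8% to 25.4% and 22.6% to 28.4% in exposed cells, against 15% to 20.1% and 17.3% to 22.8% in control cells. The shares of Mtor (15.9% and 13.8%, against 14.0% and 14.1%), Ccne1 (4.47% and 4.00%, against 5.04% and 3.66%) and Klf5 (2.35% and 2.40%, against 2.04% and 2.40%) overlapped between exposed and control cells. Since shares of a fixed whole move against each other, the higher shares of Mcl1 and Ccne2 and the lower share of Hif1a are not independent of each other. The intervals cover counting error within a library only. Whether they meet is no test of a group difference, and a shift in these shares was not tested.

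Neighbouring genes could affect some of these counts, because the handling of strand and of reads shared between genes is not given in the sources used here. In the RefSeq annotation no other gene overlaps the spans of Ccne1, Mcl1 and Klf5. The span of Ccne2 shares 5622 bases with the protein-coding gene Ints8 and 798 with a long noncoding RNA gene. That of Hif1a shares 12831 bases with the long noncoding RNA gene Gm15283, and that of Mtor contains Angptl7 and 2 small RNA or pseudogene entries. These spans include introns, and the part of the shared bases in the counts was not tested.

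**Figure D5:**
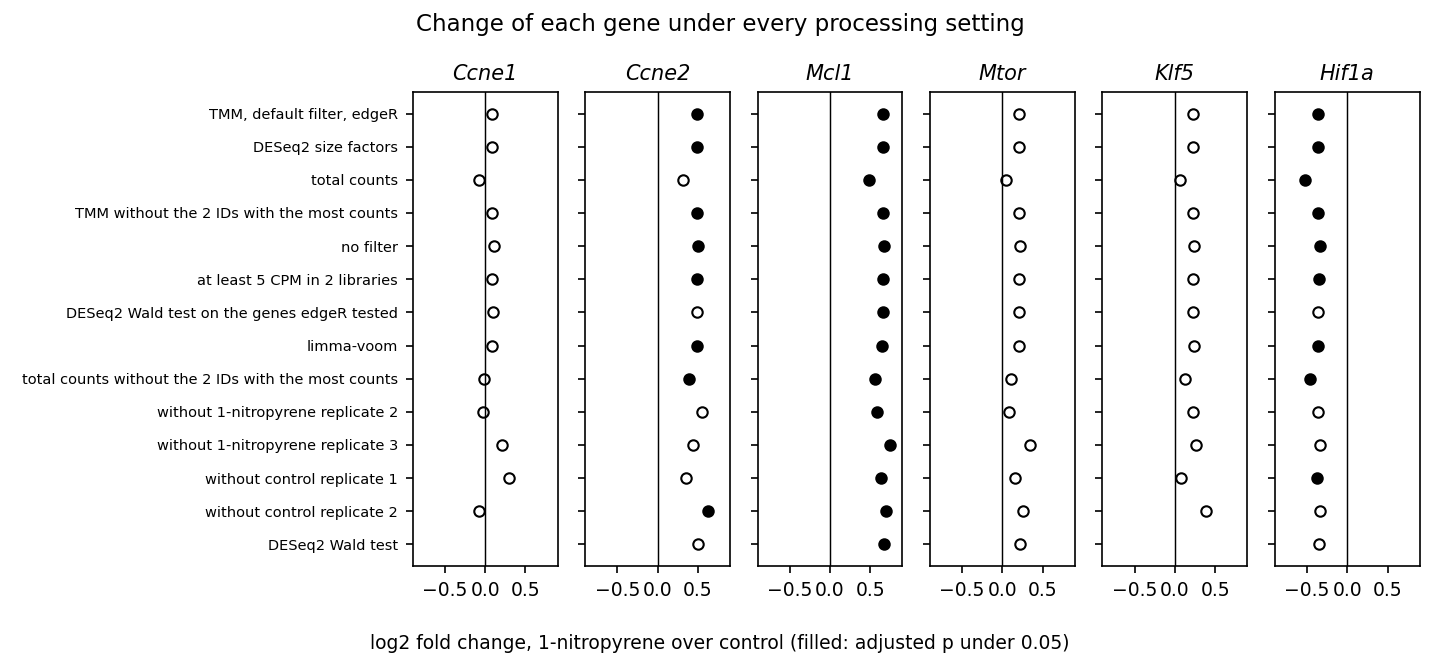
Log2 fold change, 1-nitropyrene over control, of each substrate (panels) under the fit reported above (top row) and the alternatives (other rows), with filled points at an adjusted p under 0.05. Mcl1 is filled in every row, Ccne2 and Hif1a keep their direction but are open in 6 and 5 of 13 alternatives, and Ccne1 falls on either side of 0. The DESeq2 Wald test with its own filter gave no adjusted p for Ccne1 and Klf5.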

How the data were processed

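Ribosome footprints were measured in 4 libraries of MLE-12 cells, grouped by their titles. The authors deposited 1 table of whole-number counts per Ensembl gene ID, with no normalization and 0 columns of other samples. Per the submitters' processing notes, cutadapt, Bowtie, HISAT2, featureCounts, DESeq2 and build mm10 were used; the sources used here do not give versions, settings or annotation. The members and lists were chosen with earlier results of these data known, and all 7 members are named whatever their result.

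From the counts, edgeR's filterByExpr (minimum count 10, minimum total 15) kept 7719 IDs with 98.6% of the counts. Libraries, of 1136145 to 1357034 counts, were scaled with TMM and compared without covariates by the quasi-likelihood test of edgeR 4.0.16 in R 4.3.3, with Benjamini-Hochberg adjustment over all genes tested. The prior degrees of freedom were infinite, so each gene's spread was that of the abundance trend and not its own, and SEs were derived from the fold change and F. The fits were also run on simulated counts in which all genes had the same spread. That simulation cannot show how the p-values behave where genes differ in spread. Alternatives used limma 3.58.1 and DESeq2 1.42.0. Gene spans and promoter windows are from RefSeq. The planned pathway lists, levels per coding length and phosphodegron search were not run, for want of symbols and proteins matched to the IDs.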

Additional observations from a re-analysis of the deposited data

How the results depend on the processing

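Over 12 alternative settings and 1 chosen after seeing the data (total counts without the 2 IDs with the most counts), Mcl1 was called higher in 13 of 13 and Mtor and Klf5 were called in 0 of 13 and 0 of 12, with positive log2 fold changes of 0.04 to 0.34 and 0.06 to 0.39. Of the substrates, 1 was called higher with total counts, and 1 with the DESeq2 Wald test on its own or on edgeR's genes. DESeq2 called 0 lower in either form, with 2 higher and 1 lower at an unadjusted p under 0.05, whereas limma-voom called 2 higher and 1 lower. The median log2 fold change of the substrates was 0.05 with total counts. The log2 fold change of Ccne1 reversed to -0.07 with total counts and -0.01 with total counts without the 2 IDs. Ccne2 was no longer called at 0.32 with total counts, 0.50 with the DESeq2 Wald test and 0.49 on edgeR's genes, over an adjusted p range of 0.00445 to 0.203. Hif1a was no longer called at -0.35 and -0.36 with those DESeq2 tests, over an adjusted p range of 9.05e-06 to 0.173. Over all genes, total counts called 406 higher and 1110 lower, against 747 and 585 with TMM. The share of higher calls thus turned with the scaling. DESeq2 called 315 (238 higher, 77 lower), and 345 on edgeR's genes (243 higher, 102 lower), against 1332 with edgeR. Leaving out each library in turn, which assumes for the single remaining library the spread of the other group, gave 572 to 834 calls (382 to 480 higher, 190 to 354 lower), 1 to 2 substrates higher, 0 to 1 lower (1 at an unadjusted p under 0.05 in each), a substrate median of 0.15 to 0.32, and log2 fold changes of -0.08 to 0.30 for Ccne1 (negative without 1-nitropyrene replicate 2, -0.02, and without control replicate 2, -0.08), 0.35 to 0.63 for Ccne2 and -0.38 to -0.34 for Hif1a. The cause of these differences was not tested. Leaving out a library changes the number of libraries and which of them remain together. No paired analysis was possible because replicate number 2 is the only number found in both groups. Depth limits Klf5 and Ccne1 most, and Notch1 has no counts to test.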
